A study of Mus musculus with 4 samples.

Results

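MHC class I antigen processing was followed here in mouse natural killer (NK) cells through 10 genes chosen by name: the class I light chain B2m, the peptide transport and loading genes Tap1, Tap2 and Tapbp, the immunoproteasome subunits Psmb8, Psmb9 and Psmb10, the proteasome activator subunits Psme1 and Psme2, and the class I transactivator Nlrc5. All 10 were found among the 37305 rows of the expression table, on 11 rows, because Psmb9 stands on 2 rows. Where a symbol was repeated, the row with the highest mean was taken as the gene's row. The values are FPKM (fragments per kilobase of transcript, scaled to the fragments mapped in the library), so that levels can be compared between genes within a library. Comparisons between libraries also depend on how each library was scaled.

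The NK cells came from spleens of C57BL/6 mice at postnatal day 56. All cells were first cultured with 50 ng/ml recombinant mouse IL-15, a cytokine that NK cells need for survival, for 24 hours. The treated group then received DKK2 (Dickkopf 2), a secreted protein that binds Wnt co-receptors, at 200 ng/ml for another 24 hours, and the control group received mock treatment for the same time. Each group has 2 libraries. The labels number them as replicates without saying whether separate animals or cultures were used, so the spread behind each p-value may be technical only.

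MHC class I molecules carry short peptides from the cell's own proteins to its surface. Immunoproteasomes, in which interferon-inducible subunits take the place of constitutive ones, cut proteins into peptides, the TAP transporter moves the peptides into the endoplasmic reticulum, and tapasin helps to load them onto a heavy chain paired with beta-2-microglobulin. NK cells read class I on other cells through inhibitory receptors and also carry it on their own surface, and in lymphocytes the genes of the pathway are driven by NLRC5 and interferon regulatory factors.

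Read totals are not given. Judged by the most frequent ratio of low FPKM values, the other 3 libraries were sequenced to between 0.351 and 0.401 times the depth of control replicate 1. The median level of the genes tested was 12.4 and 13.7 FPKM in the DKK2 libraries and 14.1 and 13.3 FPKM in the controls. Defining NK genes were abundant in all libraries: the receptor gene Ncr1 was at 389 and 197 FPKM in the DKK2 libraries and at 303 and 193 FPKM in the controls, and the T-box factor gene Eomes at 198 and 180 FPKM in the DKK2 libraries and at 155 and 196 FPKM in the controls. Of the 8 NK genes listed, 6 were on average higher in the DKK2 libraries and 2 lower. The 2 lower genes, with the largest differences of the 8, were Il2rb and Prf1. Il2rb was at 629 and 1292 FPKM in the DKK2 libraries and at 1506 and 1182 FPKM in the controls. Prf1 was at 649 and 851 FPKM in the DKK2 libraries and at 1207 and 955 FPKM in the controls. Markers of other cells were also present, and least in control replicate 1, which was lowest in 32 of the 34 tested markers of other cell types. The 42 such markers found in the table summed to 5555 and 1902 FPKM in the DKK2 libraries and to 468 and 1331 FPKM in the controls. A few genes carried much of these sums. Ccr2 was at 461 and 311 FPKM in the DKK2 libraries and at 352.3 and 354.5 FPKM in the controls. In DKK2 replicate 1, S100a8 was at 1738 FPKM and S100a9 at 1582 FPKM. The summed level of 7 neutrophil genes was 3357 and 119 FPKM in the DKK2 libraries and 1.03 and 61.4 FPKM in the controls. The summed level of 7 genes of class II presentation was 671 and 637 FPKM in the DKK2 libraries and 19.5 and 312 FPKM in the controls. In bulk RNA, a difference in the number of cells of a type cannot be told apart from a difference in RNA per cell.

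None of the 10 class I genes differed between DKK2 and control by limma at an adjusted p under 0.05, a call made for 0.0326% of the 12275 genes tested (4 genes). No class I gene had an unadjusted p under 0.05, against 1.84% of all genes tested. All 10 class I genes were tested, since each reached the required mean of 1 FPKM. The log2 fold change, DKK2 minus control on the log2(FPKM + 1) scale, was above 0 for 10 of 10, against 43.6% of all genes tested. Its median was 0.16 over the class I genes and -0.05 over all genes tested, and the single values ran between 0.01 and 0.68. Without DKK2 replicate 2, 4 of the 10 were above 0 and the median was -0.16; without control replicate 2, 7 of the 10 were above 0 and the median was 0.02; without DKK2 replicate 1, all 10 were and the median was 0.47; without control replicate 1, all 10 were and the median was 0.37. The 10 genes fell into a pair of patterns by library, which were noticed in the values and carry no test. In 4 genes (Psmb9, Psme1, Psme2 and Nlrc5) both DKK2 libraries lay above both controls, an arrangement found in 11.8% of all genes tested. DKK2 replicate 1 was the higher of the DKK2 libraries in all 4. Of the 1443 genes tested with both DKK2 libraries above both controls, this was so in 852 (6.94% of all genes tested). In the other 6 genes (B2m, Tap1, Tap2, Tapbp, Psmb8 and Psmb10) DKK2 replicate 2 was the highest library and DKK2 replicate 1 the lowest, with control replicate 1 above control replicate 2 between them. That order was found in 8.51% of all genes tested.

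**Figure D1:**
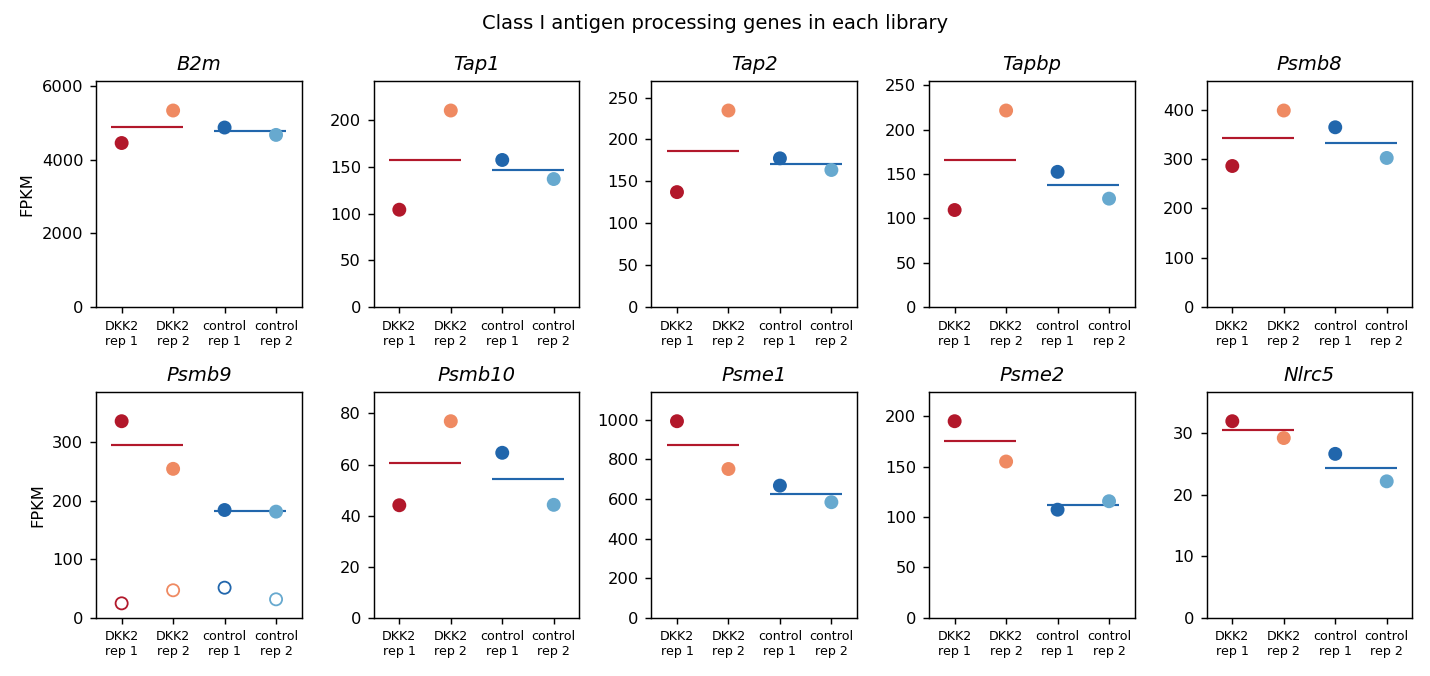
FPKM of each class I gene (vertical axes start at 0) in DKK2 replicates 1 and 2 (left) and control replicates 1 and 2 (right). Points are single libraries and lines are group means; open circles under Psmb9 are its lower row. DKK2 replicate 1 is the highest library for Psmb9, Psme1, Psme2 and Nlrc5 and the lowest for the other 6 genes.

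Letters at the starts of a few of these genes are shown because 2 of the genes, Tap1 and Psmb9, start on opposite strands from 1 short region, and because B2m and Psme1 hold the interferon regulatory factor element. Promoter windows of 300 bases, 250 before and 50 after each start, were found in RefSeq (GRCm38.p6) for 8 of the 10 genes, all but Tap2 and Nlrc5. They were searched on both strands for GAAANNGAAA (interferon regulatory factor element), TTCNNNGAA (gamma-activated sequence, GAS), GGGNNNTTCC (a kappa-B form), for the CCAAT box, written ATTGG, and for TGACG (the core of a cyclic AMP response element, CRE). Capitals mark every match to these 5 motifs in the first pair of sequences and the interferon regulatory factor element in the third. The coordinates belong to that build and not to mm9, the build named in the submitters' processing notes.
B2m, the bases before its start, plus strand, chr2:122147437-122147686: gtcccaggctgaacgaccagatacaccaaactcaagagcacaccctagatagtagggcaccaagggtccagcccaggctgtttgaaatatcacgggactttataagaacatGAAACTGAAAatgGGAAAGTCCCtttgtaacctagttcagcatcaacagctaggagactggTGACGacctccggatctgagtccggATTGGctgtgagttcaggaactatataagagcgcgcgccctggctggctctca
Tap1 and Psmb9, the 225 bases between their starts, plus strand, with Psmb9 to the left and Tap1 to the right, chr17:34187331-34187555: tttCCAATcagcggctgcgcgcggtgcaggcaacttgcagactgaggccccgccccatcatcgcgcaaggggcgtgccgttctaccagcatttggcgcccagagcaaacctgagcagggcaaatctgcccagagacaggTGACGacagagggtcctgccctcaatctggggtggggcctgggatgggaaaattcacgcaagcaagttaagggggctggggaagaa
Psme1, 30 bases at its start, plus strand, chr14:55578493-55578522: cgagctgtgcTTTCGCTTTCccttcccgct

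The Psme1 element begins at base 10 of the transcribed part, and all but the first of the 30 bases printed lie after the start. In the B2m sequence the interferon regulatory factor element (GAAACTGAAA) and the kappa-B form (GGAAAGTCCC, on the opposite strand) lie 3 bases apart and do not overlap. The interferon regulatory factor element was found in B2m and Psme1 and in 3.44% of all 32851 promoter windows of this length. The kappa-B form was found in B2m and in 5.56% of all windows. The GAS form was found once, upstream of Psmb8 (TTCCCAGAA), and in 8.3% of all windows. The TGACG letters were found in the windows of B2m, Tap1, Psmb9 and Psme2 (20.8% of all windows), Tap1 and Psmb9 sharing 1 copy between their starts. The CCAAT box was found in B2m, Tap1, Tapbp and Psmb9 (37.4% of all windows), again with 1 copy shared by Tap1 and Psmb9. A match to letters describes the sequence and is not evidence of binding.

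The light chain B2m, which every classical class I molecule needs at the surface, was by far the most abundant of the 10 transcripts and the steadiest. It was at 4450 and 5332 FPKM in the DKK2 libraries and at 4870 and 4670 FPKM in the controls, and stood between the 15th and the 23rd place among all rows of each library. The highest library was 1.2-fold above the lowest, and the groups overlapped. The log2 fold change was 0.03 ± 0.36 (SE, 95% interval -0.91 to 0.97, limma adjusted p = 1).

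The transporter subunits TAP1 and TAP2 form the pump that carries peptides into the endoplasmic reticulum, and their transcripts were at like levels. Tap1 was at 104 and 210 FPKM in the DKK2 libraries and at 157 and 137 FPKM in the controls. Tap2 was at 137 and 235 FPKM in the DKK2 libraries and at 178 and 164 FPKM in the controls. For both genes the controls lay between the DKK2 libraries, which differed from each other by 2.02-fold in Tap1 and 1.71-fold in Tap2. The log2 fold changes were 0.01 ± 0.41 for Tap1 and 0.07 ± 0.35 for Tap2 (SE, n = 2 libraries a group, limma adjusted p = 1 for each). Within a library the Tap1 to Tap2 ratio was 0.759 and 0.896 in the DKK2 libraries and 0.886 and 0.836 in the controls, so that the pair kept its proportion more closely than either gene kept its level.

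Tapasin, encoded by Tapbp, bridges the transporter and the empty class I molecule. Tapbp was at 109 and 221 FPKM in the DKK2 libraries and at 152 and 122 FPKM in the controls. DKK2 replicate 2 was 2.03-fold above DKK2 replicate 1, the largest gap between replicates among the rows taken for the 10 genes, and the groups overlapped. The log2 fold change was 0.19 ± 0.42 (SE, 95% interval -0.88 to 1.26, limma adjusted p = 1). Without DKK2 replicate 2 it was -0.32, and the values of Tap1 (-0.49) and Tap2 (-0.31) were then below 0 as well.

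The 3 inducible catalytic subunits of the immunoproteasome differed among themselves. Psmb8, which takes the place of the constitutive subunit Psmb5, was at 286 and 398 FPKM in the DKK2 libraries and at 364 and 302 FPKM in the controls (log2 fold change 0.02 ± 0.31 SE). Psmb10, which takes the place of Psmb7, was at 44.1 and 77.0 FPKM in the DKK2 libraries and at 64.6 and 44.2 FPKM in the controls (0.12 ± 0.38 SE). Both were highest in DKK2 replicate 2, with overlapping groups, as were the transport genes. Without DKK2 replicate 2 the log2 fold change was -0.21 for Psmb8 and -0.27 for Psmb10, and without control replicate 2 it was -0.11 for Psmb8 and -0.15 for Psmb10. Psmb9, which takes the place of Psmb6, was at 336 and 255 FPKM in the DKK2 libraries and at 184 and 181 FPKM in the controls. Its groups did not overlap, its fold of group means was 1.62, and its log2 fold change was 0.68 ± 0.28 (SE, 95% interval -0.05 to 1.40). With an unadjusted p of 0.0612 (limma) and an adjusted p of 1 it did not pass.

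Psmb9 is the member whose value depends on the row. The lower of its 2 rows was at 24.6 and 47.0 FPKM in the DKK2 libraries and at 51.4 and 31.5 FPKM in the controls, with a log2 fold change of -0.24 ± 0.43 (SE, limma adjusted p = 1). This lower row was lowest in DKK2 replicate 1, as Tap1 and Psmb8 were, while the higher row was highest there. Both rows added together came to 361 and 302 FPKM in the DKK2 libraries and to 236 and 213 FPKM in the controls, again without overlap. The sources used here do not say which transcripts each row covers. In the GENCODE M21 transcripts, 12.5% of the 50-base stretches of the longest coding Psmb9 transcript also occur in Tap1 transcripts read on either strand. The libraries were made with a stranded kit, which keeps the strand of a fragment. Whether fragments there were assigned by strand is not stated, so fragments of Tap1 and Psmb9 may not be fully told apart.

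**Figure D2:**
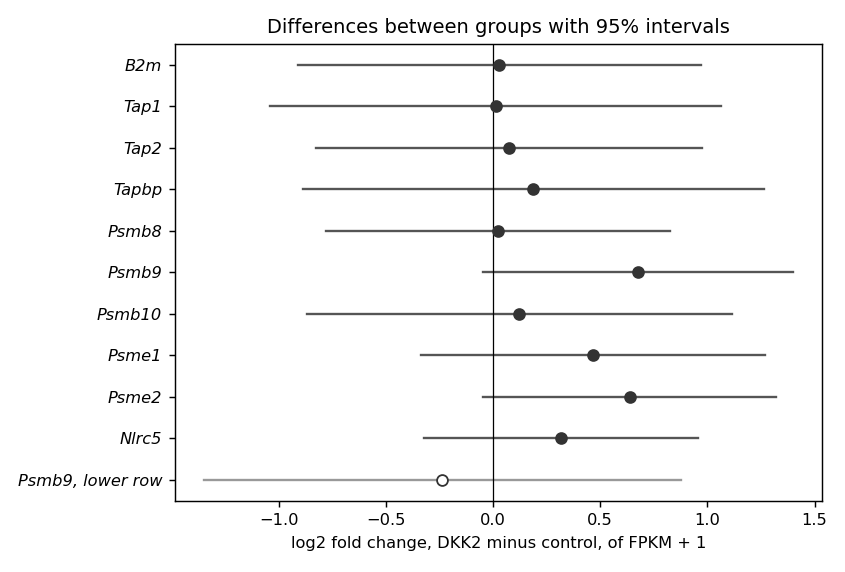
Log2 fold change of FPKM + 1 (horizontal axis, DKK2 minus control) of each class I gene with its 95% interval from limma. Filled circles are the rows used and the open circle is the lower Psmb9 row; every interval includes 0, and Psmb9 (0.68) and Psme2 (0.64) are farthest to the right.

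The activator subunits encoded by Psme1 and Psme2 form a ring that docks on the proteasome and opens its gate. Psme1 was the second most abundant of the 10 genes, at 993 and 751 FPKM in the DKK2 libraries and at 667 and 584 FPKM in the controls. Psme2 was at 195 and 155 FPKM in the DKK2 libraries and at 107 and 116 FPKM in the controls. Both DKK2 libraries were above both controls in each gene, and DKK2 replicate 1 was the higher of the pair. The fold of group means was 1.39 for Psme1 and 1.57 for Psme2. The log2 fold change was 0.47 ± 0.31 for Psme1 (SE, 95% interval -0.34 to 1.27) and 0.64 ± 0.26 for Psme2 (SE, 95% interval -0.05 to 1.32), with a limma adjusted p of 1 for each.

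The level of Psme2 is uncertain, because the mouse genome holds an intronless copy, listed in the table as Psme2b-ps. Of the 50-base stretches of the longest coding Psme2 transcript, 59.3% also occur in transcripts of that copy (Psme2b in GENCODE M21). Psme2b-ps was itself listed at 418 and 354 FPKM in the DKK2 libraries and at 310 and 303 FPKM in the controls. Added to Psme2 it gave 613 and 509 FPKM in the DKK2 libraries and 417 and 419 FPKM in the controls, still without overlap, with a log2 difference of 0.42. Stretches shared with other genes made up 21.0% of all in Tapbp (19.0% with Gm19412), 14.1% in Psme1, 12.6% in Tap2, 6.47% in Tap1 and 5.83% in Psmb8, so that part of the fragments of these genes may not be told apart from those of others. B2m, Psmb10 and Nlrc5 shared 0 such stretches.

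NLRC5 is the transactivator of class I genes and of several of their partners. Nlrc5 had the lowest level of the 10 genes, at 31.9 and 29.2 FPKM in the DKK2 libraries and at 26.6 and 22.1 FPKM in the controls. The groups did not overlap, but the gap between DKK2 replicate 2 and control replicate 1 was smaller than that between the 2 controls. The log2 fold change was 0.32 ± 0.25 (SE, 95% interval -0.32 to 0.96, limma adjusted p = 1). Its order of libraries was that of Psmb9 and Psme1, with DKK2 replicate 1 first, and not that of B2m, Tap1, Tap2 and Tapbp.

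**Figure D3:**
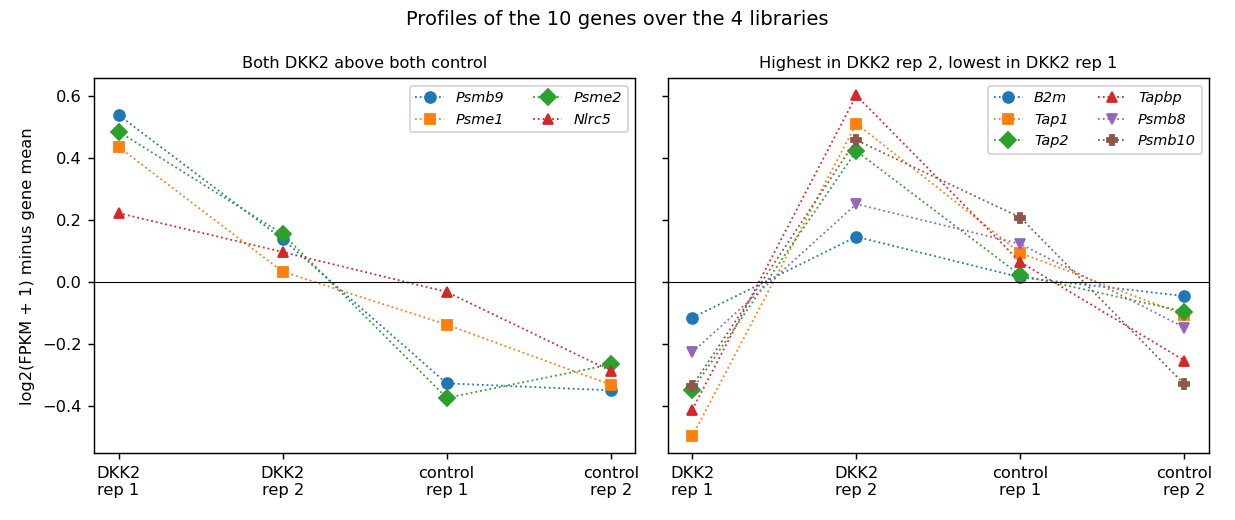
Log2(FPKM + 1) of each class I gene minus its mean over the 4 libraries (vertical axis), by library (horizontal axis); dotted lines only link the points of 1 gene. Psmb9, Psme1, Psme2 and Nlrc5 (left) are above their mean in both DKK2 libraries, and the other 6 genes (right) are highest in DKK2 replicate 2 and lowest in DKK2 replicate 1.

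By mean level over the 4 libraries, B2m was followed by Psme1 (749 FPKM), Psmb8 (338), Psmb9 (239), Tap2 (178), Tap1 (152), Tapbp (151), Psme2 (143), Psmb10 (57.5) and Nlrc5 (27.5). Neighbours in that order from Psmb8 to Psme2 overlapped in their ranges over the libraries and are not separated by these data, while B2m, Psme1, Psmb10 and Nlrc5 each had a range that met no other. In DKK2 replicate 1 Psmb9 exceeded Psmb8 (336 against 286 FPKM), while in the other libraries Psmb8 was the higher.

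Ratios within a library do not depend on how the library was scaled, and they were taken between each inducible subunit and its constitutive partner. Psmb8 to Psmb5 was 7.64 and 7.98 in the DKK2 libraries and 4.86 and 6.69 in the controls. Psmb9 to Psmb6 was 2.25 and 1.48 in the DKK2 libraries and 0.8 and 1.13 in the controls. Both ratios were higher in the 2 DKK2 libraries than in the 2 controls, by 0.45 and 0.94 on the log2 scale. The difference for Psmb8 to Psmb5 was 0.22 without control replicate 1 and 0.68 without control replicate 2. Psmb10 to Psmb7 was 0.224 and 0.46 in the DKK2 libraries and 0.278 and 0.218 in the controls, with overlap (log2 difference 0.39, and -0.13 without DKK2 replicate 2). With the lower Psmb9 row the Psmb9 to Psmb6 ratio was 0.165 and 0.272 in the DKK2 libraries and 0.223 and 0.197 in the controls, which also overlapped. The activator genes were set against Psme3, which encodes the nuclear proteasome activator and is not part of the same ring, a pairing chosen after the values were seen. Psme1 to Psme3 was 5.04 and 4.38 in the DKK2 libraries and 2.71 and 2.6 in the controls, and Psme2 to Psme3 was 0.99 and 0.903 in the DKK2 libraries and 0.436 and 0.516 in the controls. With 2 libraries against 2, an exact two-sided permutation test cannot go below p = 0.33. That was the p of the Psmb8, Psmb9, Psme1 and Psme2 ratios, and each was 0.611 after Benjamini-Hochberg adjustment over the 11 ratios computed.

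**Figure D4:**
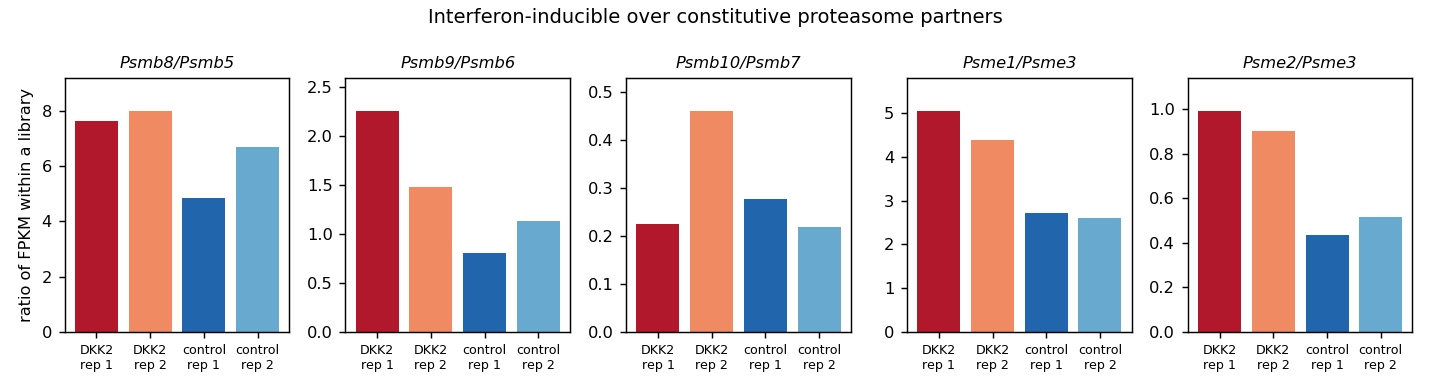
Ratio of FPKM within each library (vertical axes start at 0) for 5 gene pairs, with DKK2 replicates on the left and control replicates on the right of each panel; bars are single libraries. The DKK2 bars exceed both control bars in all panels but Psmb10/Psmb7, where only DKK2 replicate 2 does.

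Those ratios moved with their denominators, and for Psmb8 and Psmb10 more so than with the class I gene. The log2 fold change was 0.02 for Psmb8 against -0.42 for Psmb5, and 0.12 for Psmb10 against -0.26 for Psmb7. For Psmb9, Psme1 and Psme2 the class I gene had the larger log2 fold change in size. Psmb5 was at 37.4 and 49.9 FPKM in the DKK2 libraries and at 75.0 and 45.1 FPKM in the controls, Psmb6 at 149 and 172 FPKM in the DKK2 libraries and at 231 and 160 FPKM in the controls. Psmb7 was at 196 and 167 FPKM in the DKK2 libraries and at 232 and 203 FPKM in the controls, and Psme3 at 197 and 172 FPKM in the DKK2 libraries and at 246 and 224 FPKM in the controls. Of the 6 constitutive partners, activators and assembly genes tested, 5 had a log2 fold change below 0 (median -0.26), and 0 passed limma.

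The class I heavy chains, which bind the peptide, were on the same side as the 10 genes. Of 18 heavy chain and class I-like genes listed, 13 were high enough to test, 12 had a log2 fold change above 0 (43.6% of all genes tested did), and 6 had both DKK2 libraries above both controls (11.8% of all genes tested did). Their median was 0.17 and 0 passed limma. Of the others, 3 were below the filter and 2 symbols had no row under that name. H2-K1 was at 1204 and 1568 FPKM in the DKK2 libraries and at 1102 and 1102 FPKM in the controls (0.32 ± 0.32 SE). H2-D1 was at 1266 and 1747 FPKM in the DKK2 libraries and at 1283 and 1207 FPKM in the controls (0.26 ± 0.33 SE). The heavy chains were highest in DKK2 replicate 2 in 10 of 13 cases (25.7% of all genes tested were), as were B2m and the transport genes. H2-T23, which encodes the ligand-presenting molecule Qa-1, was at 68.9 and 109 FPKM in the DKK2 libraries and at 77.6 and 62.5 FPKM in the controls. Cd1d1, which presents lipids and is also made by antigen-presenting cells, was at 11.9 and 15.0 FPKM in the DKK2 libraries and at 2.6 and 9.28 FPKM in the controls (1.24 ± 0.55 SE, limma adjusted p = 1). Heavy chain genes resemble each other closely, so fragments may have been divided among them in ways that the table does not show.

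Chaperones and peptide-trimming enzymes stood mostly on the other side of 0 from the 10 genes. Of 12 tested, 1 had a log2 fold change above 0 and 11 below, 4 had both DKK2 libraries below both controls (14.8% of all genes tested did), and 0 passed limma. Tpp2, a cytosolic tripeptide-cutting enzyme, was at 44.0 and 41.0 FPKM in the DKK2 libraries and at 54.6 and 60.3 FPKM in the controls (-0.43 ± 0.24 SE). Lnpep, an endosomal aminopeptidase, was at 34.9 and 37.8 FPKM in the DKK2 libraries and at 46.5 and 49.0 FPKM in the controls (-0.39 ± 0.23 SE). The lectin chaperone gene Canx was at 381 and 388 FPKM in the DKK2 libraries and at 396 and 475 FPKM in the controls (-0.17 ± 0.27 SE). The list median was -0.14.

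Upstream regulators were mixed, with 8 of 16 above 0, a median of 0.01 and 0 past limma. Irf1, an interferon-induced activator of class I genes, was at 88.8 and 137 FPKM in the DKK2 libraries and at 53.9 and 90.8 FPKM in the controls (0.65 ± 0.39 SE). Rfx5, a subunit of the complex through which NLRC5 acts, was at 3.47 and 11.9 FPKM in the DKK2 libraries and at 9.62 and 7.81 FPKM in the controls (-0.35 ± 0.55 SE). DKK2 replicate 2 was the highest library for both, as it was for the transport genes and for 25.7% of all genes tested. Rfx5 had the full order of the transport genes (found in 8.51% of all genes tested), while Irf1 was lowest in control replicate 1. The interferon-gamma gene Ifng was on the other side of 0 from Irf1, at 64.8 and 87.8 FPKM in the DKK2 libraries and at 255 and 93.3 FPKM in the controls (-1.02 ± 0.54 SE). Of the 6 genes of the interferon-gamma signal, 3 were above 0 and 3 below, and 0 passed limma. Of the 53 tested genes in these lists beside the 10, 0 had an unadjusted p under 0.05 by limma.

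Markers of other cells did not share 1 order over the libraries, and neither did the class I genes. Of the 34 tested markers, 15 were highest in DKK2 replicate 1, the top library of Psmb9, Psme1, Psme2 and Nlrc5, and 17 in DKK2 replicate 2, the top library of the other 6 genes. Lyz2, which encodes lysozyme of myeloid cells, stood at 552 and 209 FPKM in the DKK2 libraries and at 0.889 and 142 FPKM in the controls, the order of Psme2, and the neutrophil sum was also highest in DKK2 replicate 1. The myeloid receptor genes Csf1r (10.4 and 16.1 FPKM in the DKK2 libraries, 0.0742 and 8.45 FPKM in the controls) and Fcgr1 (13.7 and 20.6 FPKM in the DKK2 libraries, 0.0318 and 11.2 FPKM in the controls) were highest in DKK2 replicate 2, where B2m, Tap1, Tap2, Tapbp, Psmb8 and Psmb10 were highest too. The summed level of 6 B and plasma cell genes was 150 and 323 FPKM in the DKK2 libraries and 4.54 and 259 FPKM in the controls. The invariant chain gene Cd74 was at 192 and 275 FPKM in the DKK2 libraries and at 3.89 and 127 FPKM in the controls. The macrophage complement genes C1qa and C1qc were listed at 0 in control replicate 1. In that library Psmb9 (184.3 against 181.5 FPKM), Psme1 and Nlrc5 were above control replicate 2, and Psme2 (107.2 against 115.6 FPKM) was below it. The part of other cells in the levels of the 10 genes was not tested.

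Among 7162 other genes averaging 10 FPKM or more, those closest to the median profile of the 10 genes over the 4 libraries were Tmem173, Rbpms, Tmub2, Tbx21 and Herc3. Their root mean square distance to that profile on the log2(FPKM + 1) scale was between 0.0107 and 0.0281. Tmem173, which encodes the DNA-sensing adaptor STING, was at 75.9 and 98.2 FPKM in the DKK2 libraries and at 87.9 and 72.0 FPKM in the controls. Tbx21, the T-box factor gene of the NK lineage, was at 35.2 and 47.5 FPKM in the DKK2 libraries and at 40.7 and 34.5 FPKM in the controls. The median profile itself was -0.12 and 0.25 in the DKK2 libraries and 0.07 and -0.21 in the controls. It mixes the patterns described above, and none of the 10 genes had its order of libraries. With 4 libraries many genes come close to any profile by chance, so the list of close genes is only a description.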

How the data were processed

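RNA was profiled in 4 libraries made with a stranded total RNA kit, per the labels' protocols. The deposited table holds FPKM values per gene symbol, 1 column per library, per the file headers. Per the submitters' processing notes, the build was mm9 and the tools included Cuffdiff 2.1.0, TopHat2 2.1.0, CASAVA and edgeR, with no role stated. Annotation, strand setting and the sharing of multiply mapped fragments are not given in the sources used here. Each of the 4 columns was matched to its library by name.

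Values were taken as log2(FPKM + 1), which understates the change of low genes. The 12275 rows averaging 1 FPKM or more were compared in 1 fit with limma 3.58.1 in R 4.3.3 (eBayes with a trend), two-sided, with Benjamini-Hochberg adjustment and a threshold of 0.05. The script was tested on simulated data with larger changes than those of the class I genes and less noise than these libraries. That test does not show whether changes of the size seen here could be found. Relative depth is the most frequent ratio between libraries among rows under 0.3 FPKM (within 0.5%). Promoters are RefSeq's for GRCm38.p6.

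The genes, the lists and their tests were chosen with earlier results of these data known. Up to 6 genes per list, those with the largest log2 fold change in size, could be named. Psme2b-ps and the marker genes named were picked after their values were seen. Alternatives were the pseudocount, the filter, scaling, the trend, a replicate block, each library left out and the row of a repeated symbol. One regulator in the lists is not reported here by name.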

Additional observations from a re-analysis of the deposited data

How the results depend on the processing

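No class I gene passed limma at an adjusted p under 0.05 in any alternative run, and at most 2 had an unadjusted p under 0.05. The number of genes past the threshold in the whole table, 4, was 0 with no filter on low values (949 at an unadjusted p under 0.05) and 8 with the replicate block (replicate number as a covariate). It was 0 in each limma fit that left out a library (150 to 855 at an unadjusted p under 0.05). With 2 libraries a group, a replicate block cannot alter a difference of group means (median 0.16; ratios 0.45, 0.94 and 0.39), only the error. The median log2 fold change of the class I genes ranged from -0.16 to 0.47 over the fits that left out a library, with the lowest value without DKK2 replicate 2 and the highest without DKK2 replicate 1. Deviations of replicate 1 from its group mean were almost uncorrelated between the groups (correlation 0.0117 across genes). That value cannot tell whether libraries with the same replicate number shared an animal or a culture. Of 40 values of single class I genes with a library left out, 9 changed sign, 6 of them without DKK2 replicate 2 and 3 without control replicate 2. The ranges were -0.10 to 0.16 for B2m, -0.49 to 0.52 for Tap1, -0.31 to 0.46 for Tap2, -0.32 to 0.69 for Tapbp, -0.21 to 0.26 for Psmb8 and -0.27 to 0.52 for Psmb10. The ranges stayed above 0 for Psmb9 (0.48 to 0.87), Psme1 (0.27 to 0.67), Psme2 (0.47 to 0.80) and Nlrc5 (0.19 to 0.45). In these genes both DKK2 libraries lay above both controls, so leaving out a library could not change the sign. Psmb8 was at -0.017 after quantile normalization, and the lower Psmb9 row, an alternative chosen after seeing the data, was at -0.24; the cause was not tested. The log2 difference of the Psmb10 to Psmb7 ratio ranged from -0.13 to 0.90 when a library was left out, that of Psmb8 to Psmb5 from 0.22 to 0.68 and that of Psmb9 to Psmb6 from 0.63 to 1.24. Depth limits the low genes most. Judged by the ratio of low FPKM values, an estimate and not a read count, 3 libraries had 0.351 to 0.401 of the depth of control replicate 1.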
